A study of Mus musculus with 16 samples.

Results

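Transcript levels of 10 genes that set, copy, remove or protect DNA methylation were examined in 16 mouse pluripotent cell lines. The genes were Dnmt1, Dnmt3a, Dnmt3b, Dnmt3l, Uhrf1, Tet1, Tet2, Zfp57, Trim28 and Dppa3, taken from the expression table by gene name. All 10 were found among the 22552 genes of the table, and all 10 were among the 13185 genes with a mean of at least 0.5 FPKM (a level in fragments, scaled by transcript length and library size) that were tested. AN lines are nuclear transfer embryonic stem cells, made by transferring the nuclei of adipocyte progenitor cells (APCs) into enucleated B6D2F1 oocytes. AI lines are induced pluripotent stem cells, made from the same kind of donor cells by adding doxycycline. The APCs came from mice grown entirely from one earlier iPSC line carrying Rosa26-M2rtTA, with 129-M2rtTA as the strain label, so every line shared the donor background and the inserted reprogramming factors, and there was no line without them. The study classed a line as F (fully pluripotent) or P (partially reprogrammed) by tetraploid complementation, in which the injected cells must form the whole embryo. This gave an AN F group of 4 (AN20, AN15, AN9 and AN1, passage 6 to 7), an AN P group of 5 (AN7, AN6, AN5, AN3 and AN2, passage 5 to 7), an AI F group of 4 (GS32, AI10, AI7 and AI3, passage 7 to 13) and an AI P group of 3 (GS9, GS4 and AI9, passage 6 to 17). Each line is 1 derivation with 1 library, so the spread within a group is the spread between lines. The class comes from the study by line name and not from the sample labels, and for GS9 and GS32 the source label names GS4, so their values rest on the sample titles.

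The depth of the libraries relative to AN1, inferred from ratios of low FPKM values and not from reads, was 0.961 to 1.26. The correlation of log2(FPKM + 1) between lines was 0.929 to 0.978. The number of reads behind a value is unknown. Pluripotency markers were present in every line, with a summed FPKM of 9 genes between 1076 and 2202. Fibroblast markers, which the feeder layer also expresses, summed to 480 to 2048 FPKM over 12 genes. In such bulk RNA, fewer cells of a type and less RNA per cell cannot be told apart.

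DNA methylation is placed on unmarked CpG sites by DNMT3A and DNMT3B, with DNMT3L as a cofactor that has no catalytic activity of its own. After replication, UHRF1 recognises hemimethylated CpG and recruits DNMT1, which copies the mark to the new strand. TET enzymes oxidise 5-methylcytosine, and ZFP57, TRIM28 and DPPA3 protect imprinted regions from the erasure that sweeps the genome in the early embryo, so that the parental marks survive.

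The upstream sequences of these genes are shown because CpG sites are what the encoded enzymes act on. RefSeq promoter entries (build GRCm38.p6) were found for 9 of the 10 genes, with 18 listed starts among them. Dppa3 was not matched. The 250 bases before the start are printed for the 4 genes with 1 listed start and for the 2 genes with fewer than 10 CpG at every listed start, where the start with most CpG was taken. They run 5′ to 3′ on the strand of the gene, and capitals mark the CpG dinucleotides:
Tet2 (chr3:133544391-133544640, minus strand, 51 CpG): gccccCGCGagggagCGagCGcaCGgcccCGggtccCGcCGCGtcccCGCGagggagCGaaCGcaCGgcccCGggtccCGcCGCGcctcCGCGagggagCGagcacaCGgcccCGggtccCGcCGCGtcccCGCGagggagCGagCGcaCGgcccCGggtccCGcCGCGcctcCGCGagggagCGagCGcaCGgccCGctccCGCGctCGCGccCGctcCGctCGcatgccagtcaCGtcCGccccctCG
Dnmt3b (chr2:153649199-153649448, plus strand, 21 CpG): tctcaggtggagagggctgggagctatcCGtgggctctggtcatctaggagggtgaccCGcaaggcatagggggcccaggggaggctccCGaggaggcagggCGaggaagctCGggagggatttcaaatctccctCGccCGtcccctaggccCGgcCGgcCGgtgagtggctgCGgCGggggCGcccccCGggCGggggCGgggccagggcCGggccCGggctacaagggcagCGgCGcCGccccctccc
Trim28 (chr7:13023902-13024151, plus strand, 17 CpG): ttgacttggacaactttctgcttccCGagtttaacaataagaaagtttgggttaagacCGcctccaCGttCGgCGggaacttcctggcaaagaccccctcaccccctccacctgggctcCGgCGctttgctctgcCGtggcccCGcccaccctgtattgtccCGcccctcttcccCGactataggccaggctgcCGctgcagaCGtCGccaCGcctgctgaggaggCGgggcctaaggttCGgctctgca
Tet1 (chr10:62887325-62887574, minus strand, 15 CpG): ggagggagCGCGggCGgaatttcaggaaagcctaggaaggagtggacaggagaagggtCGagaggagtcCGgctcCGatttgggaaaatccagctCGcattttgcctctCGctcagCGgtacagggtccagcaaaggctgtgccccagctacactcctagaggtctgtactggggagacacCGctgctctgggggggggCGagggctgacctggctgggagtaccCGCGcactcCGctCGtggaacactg
Zfp57 (chr17:37002275-37002524, plus strand, 7 CpG): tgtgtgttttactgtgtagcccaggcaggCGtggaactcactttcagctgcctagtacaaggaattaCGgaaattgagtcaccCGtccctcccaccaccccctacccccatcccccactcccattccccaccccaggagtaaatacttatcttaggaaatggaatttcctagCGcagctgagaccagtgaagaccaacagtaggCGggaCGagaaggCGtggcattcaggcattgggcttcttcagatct
Dnmt3l (chr10:78042037-78042286, plus strand, 5 CpG): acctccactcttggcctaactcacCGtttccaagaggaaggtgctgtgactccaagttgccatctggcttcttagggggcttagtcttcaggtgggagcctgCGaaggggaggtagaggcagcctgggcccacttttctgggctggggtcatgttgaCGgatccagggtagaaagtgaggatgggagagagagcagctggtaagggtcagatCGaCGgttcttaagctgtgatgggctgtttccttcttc

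The 6 sequences run from 51 CpG in Tet2, a count reached by 0.067% of the 32851 listed starts of all genes, to 5 in Dnmt3l, reached by 55.6%. The median over all starts was 6. The other 2 starts of Dnmt3l had 4 and 3 CpG, and the other 2 of Zfp57 had 6 and 3. Dnmt3a had 38, 40 and 15 CpG at its 3 starts, Dnmt1 had 26, 7 and 2, and Uhrf1 had 10 and 30. The GC box GGGCGG was found on either strand at 11 of the 18 starts, in 8 of the 9 genes (all but Zfp57), against 32.7% of all starts. TGCCGC, the motif that ZFP57 binds when methylated, was found at 2 of the 18 starts, in Dnmt3a and Trim28, against 8.68% of all starts. The octamer ATGCAAAT and the nuclear receptor half-site AAGGTCA were at none of the 18 starts, against 1.6% and 4.08% of all starts. A GGGCGG match can share bases with a TGCCGC match on the other strand.

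In the mm9 annotation all 10 are protein-coding genes. Dnmt1 lies on chromosome 9 (20711650 to 20757317, minus strand), Dnmt3a on chromosome 12 (3806007 to 3914443, plus), Dnmt3b on chromosome 2 (153475186 to 153513466, plus), Dnmt3l on chromosome 10 (77504692 to 77526367, plus) and Uhrf1 on chromosome 17 (56442744 to 56462909, plus). Tet1 lies on chromosome 10 (62267318 to 62361866, minus), Tet2 on chromosome 3 (133126643 to 133207354, minus), Zfp57 on chromosome 17 (37138108 to 37147580, plus), Trim28 on chromosome 7 (13609501 to 13616384, plus) and Dppa3 on chromosome 6 (122576428 to 122580290, plus). Genes of the opposite strand overlap Dnmt3a (a microRNA gene and a processed transcript), Dnmt3b (7530422B04Rik) and Dnmt3l (Aire), and a U6 gene lies within Tet1.

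All 10 genes were expressed in every line. By mean FPKM over the 16 lines the order was Trim28 (429), Dnmt3b (178), Dnmt3l (119), Zfp57 (80.6), Uhrf1 (76.6), Dnmt1 (66.4), Dppa3 (66.1), Dnmt3a (27.2), Tet1 (23.6) and Tet2 (6.65). The SD over lines was 69.0, 37.2, 60.3, 26.4, 10.4, 8.71, 27.0, 10.0, 8.64 and 2.13 FPKM in the same order. Zfp57, Uhrf1, Dnmt1 and Dppa3 are neighbours whose ranges over the lines overlapped, and so did those of Dnmt3b and Dnmt3l, and of Dnmt3a and Tet1. Trim28 stood above the rest, and only the highest lines of Dnmt3b (285 FPKM in AI3) and Dnmt3l (279.4 in GS4) reached past the lowest Trim28 line (279.1 in AN6). Tet2 was the lowest, and its highest line (11.5 FPKM in GS4) passed the lowest line of Tet1 (7.06 in AN6) and of no other gene.

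**Figure D1:**
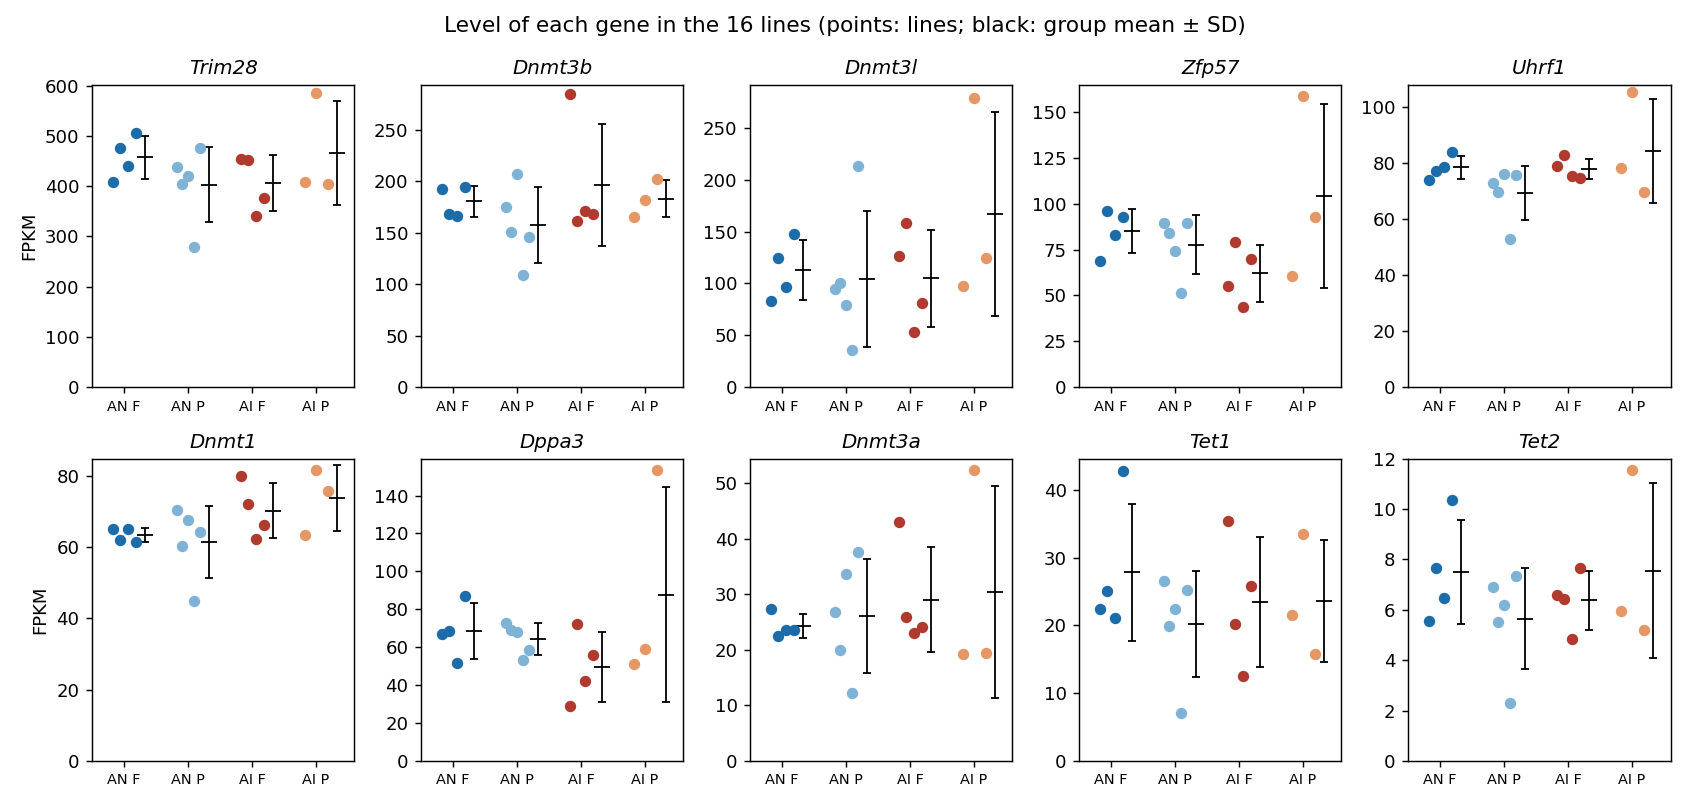
FPKM of each gene (vertical axes, linear from 0) in the 4 groups of lines, 1 point per line, with the group mean and SD in black at the right of each group. F and P lines overlap in every panel, and the topmost AI P point, for 8 of the 10 genes among all 16 lines, is GS4 (7 genes) or GS9 (1 gene).

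The genes differed in how steady they were. Dnmt1 and Uhrf1, the maintenance pair, varied least, with a highest value 1.82 and 2.00 times the lowest. Dnmt3l varied most, at 7.81 times, followed by Tet1 (6.07), Dppa3 (5.31), Tet2 (5.01), Dnmt3a (4.29), Zfp57 (3.64), Dnmt3b (2.61) and Trim28 (2.1). On the log2(FPKM + 1) scale the SD of Dnmt3l over lines was 0.71, and 2.50% of the 13185 tested genes had a larger one. For Uhrf1 the SD was 0.19, and 59.1% of the tested genes had a larger one. A large part of this came from AN6 and GS4. Without these 2 lines the ratio of the highest to the lowest was 3.99 for Dnmt3l, 3.40 for Tet1, 1.20 for Uhrf1 and 1.33 for Dnmt1, but it stayed at 5.31 for Dppa3, whose extremes lay in other lines.

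Dnmt1, the enzyme that copies methylation after replication, had 65.0, 62.0, 65.1 and 61.4 FPKM in AN F (AN1, AN9, AN15 and AN20). In AN P (AN2, AN3, AN5, AN6 and AN7) it had 70.4, 60.2, 67.7, 44.9 and 64.2. It had 80.0, 72.2, 62.2 and 66.3 in AI F (AI3, AI7, AI10 and GS32) and 63.5, 81.7 and 75.8 in AI P (AI9, GS4 and GS9). AN6 was the one clearly low line, and F and P lines were mixed within each kind of line. Dnmt1 was the gene with the most even AN F group, at 63.4 ± 1.97 FPKM (SD, n = 4). In the AN F against AN P comparison the 95% interval of its fold ran from 0.863 to 1.26, and in the AI comparison from 0.773 to 1.18.

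UHRF1 reads the hemimethylated site for DNMT1. Its transcript had 78.4 ± 4.09 FPKM in the AN F lines (SD, n = 4), 69.4 ± 9.68 in AN P (n = 5), 77.9 ± 3.65 in AI F (n = 4) and 84.4 ± 18.6 in AI P (n = 3). AN6 (52.8) was the lowest line and GS4 (105) the highest. The AN difference of 0.18 on the log2 scale (SE 0.11) gave the lowest exact permutation p of the 10 genes in that comparison, at 0.063 (two-sided), and an adjusted p of 0.636 by limma.

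The de novo enzymes did not follow each other closely. Dnmt3a had 24.3 ± 2.17 FPKM in the AN F lines (SD, n = 4), 26.1 ± 10.3 in AN P (n = 5), 29.1 ± 9.39 in AI F (n = 4) and 30.3 ± 19.09 in AI P (n = 3). The wide groups held a few high lines, GS4 at 52.4, AI3 at 43.0 and AN7 at 37.6, and 1 low one, AN6 at 12.2. Dnmt3b had 180.3 ± 15.1 in the AN F lines (n = 4), 157 ± 36.5 in AN P (n = 5), 196 ± 59.1 in AI F (n = 4) and 183 ± 18.3 in AI P (n = 3). AI3 (285) was its highest line and AN6 (109) its lowest, whereas GS4 (182) lay in the middle of the range.

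Dnmt3l, the cofactor, had 83.3, 125, 96.8 and 147 FPKM in AN1, AN9, AN15 and AN20. In AN2, AN3, AN5, AN6 and AN7 it had 94.4, 101, 79.1, 35.8 and 213. In AI3, AI7, AI10 and GS32 it had 126.4, 159, 53.4 and 81.2, and in AI9, GS4 and GS9 it had 97.7, 279 and 125. The lowest and the second-highest of the 16 values, AN6 and AN7, both belonged to AN P. The partially reprogrammed ntESCs thus ran from 35.8 to 213 FPKM, with only GS4 (279) above them. The mean was 113 ± 28.6 in the AN F lines (SD, n = 4), 105 ± 65.7 in AN P (n = 5), 105 ± 46.8 in AI F (n = 4) and 167 ± 98.1 in AI P (n = 3). Aire, which overlaps Dnmt3l on the opposite strand, had a mean of 1.82 FPKM, with its highest value, 9.05, also in GS4. Whether the counting used strand is not given in the sources used here, so reads of the shared stretch cannot be assigned with certainty.

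TET1 and TET2 oxidise 5-methylcytosine. Tet1 had 22.5, 25.0, 21.1 and 42.8 FPKM in AN1, AN9, AN15 and AN20, and 26.6, 19.98, 22.4, 7.06 and 25.2 in AN2, AN3, AN5, AN6 and AN7. Its values in AI3, AI7, AI10 and GS32 were 35.4, 20.2, 12.6 and 25.8, and those in AI9, GS4 and GS9 were 21.5, 33.5 and 15.8. AN20 stood highest, AN6 lowest and AI10 second lowest, and the other AN lines lay close together. Tet2 had 7.51 ± 2.07 FPKM in the AN F lines (SD, n = 4), 5.65 ± 2.00 in AN P (n = 5), 6.37 ± 1.16 in AI F (n = 4) and 7.55 ± 3.47 in AI P (n = 3). Its lowest lines were again AN6 (2.30) and AI10 (4.83), and its highest were GS4 (11.5) and AN20 (10.3).

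Zfp57 encodes the zinc finger protein that binds methylated imprinting control regions. It had 68.7, 95.9, 83.2 and 92.8 FPKM in AN1, AN9, AN15 and AN20, and 89.8, 84.0, 74.2, 51.3 and 89.3 in AN2, AN3, AN5, AN6 and AN7. In iPSCs, AI3, AI7, AI10 and GS32 had 55.2, 79.3, 43.8 and 69.9, and AI9, GS4 and GS9 had 60.5, 159 and 92.8. GS4 was far above all other lines, and AI10 was the lowest. The AI F mean of 62.0 ± 15.7 (SD, n = 4) and the AI P mean of 104 ± 50.3 (n = 3) had overlapping ranges.

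TRIM28 (KAP1) is the corepressor that ZFP57 recruits. Trim28 had 408, 476, 439.9 and 505 FPKM in AN1, AN9, AN15 and AN20, and 438, 404, 419, 279 and 476 in AN2, AN3, AN5, AN6 and AN7. In AI3, AI7, AI10 and GS32 it had 455, 452, 341 and 377, and in AI9, GS4 and GS9 it had 408, 586 and 405. The order of the extreme lines was the same as for Tet2, with AN6 and AI10 lowest and GS4 and AN20 highest.

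DPPA3 (STELLA) protects the maternal genome from oxidation of 5-methylcytosine after fertilisation and can displace UHRF1 from chromatin. Dppa3 had 67.2, 68.7, 51.4 and 87.2 FPKM in AN1, AN9, AN15 and AN20, and 72.9, 69.0, 68.2, 53.2 and 58.4 in AN2, AN3, AN5, AN6 and AN7. In AI3, AI7, AI10 and GS32 it had 28.9, 72.0, 41.9 and 56.0, and in AI9, GS4 and GS9 it had 51.1, 58.8 and 153. GS9 was the highest line and AI3 the lowest, while GS4 was near the middle.

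Across genes, 2 lines held most of the extreme values. AN6 was the lowest of the 16 lines for 8 of the 10 genes (all but Zfp57 and Dppa3), where it was the lowest line for 13.8% of all tested genes. GS4 was the highest line for 7 of the 10 (all but Dnmt3b, Tet1 and Dppa3), where it was the highest for 14.7% of all tested genes. AI10 was the lowest line for 1 of the 10 (14.5% of all tested genes) and among the 3 lowest for 6. AN20 was the highest line for 1 of the 10 (12.6% of all tested genes) and among the 3 highest for 6. The share of all tested genes with these lines among the 3 lowest or highest was not computed. The median deviation of the 10 genes from their own medians was -0.64 on the log2 scale in AN6, -0.34 in AI10, 0.22 in AN20 and 0.51 in GS4, and that of all tested genes was between -0.028 and 0.020 in every line. AN6 is a P line and AI10 an F line, so low values occurred in both classes. Likewise AN20 is F and GS4 is P.

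**Figure D2:**
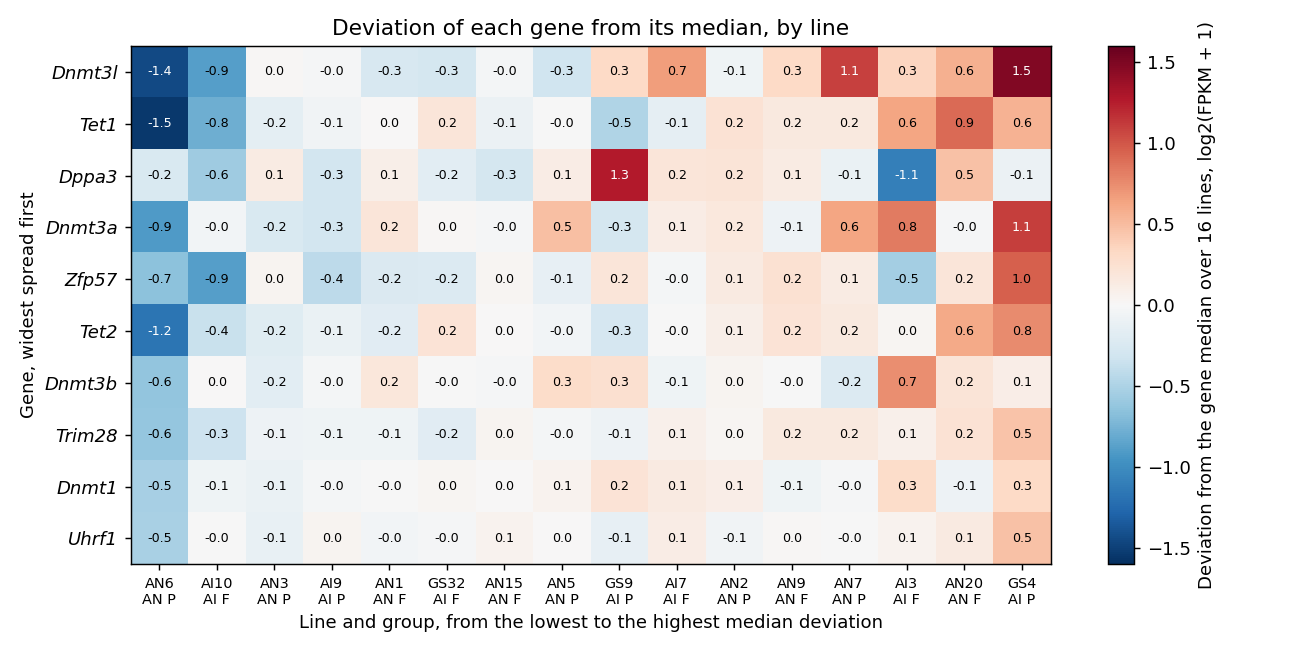
Deviation of each gene (rows, widest spread first) from its own median over the 16 lines, in log2(FPKM + 1), with lines ordered by the median of the 10 deviations. AN6 at the left is blue in every row, GS4 at the right is red in every row except Dppa3, and F and P lines are interleaved between them.

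Most of the genes moved together from line to line. Over the 16 lines the 45 pairs had a median Pearson r of 0.68 on the log2(FPKM + 1) scale, and 30 pairs were above 0.5. It was 0.76 within the 9 AN lines and 0.62 within the 7 AI lines. These correlations are between genes measured in the same libraries. AN6 and GS4 carried much of them, since without those 2 lines the median r was 0.24 and 11 pairs were above 0.5. The tightest pair was Dnmt3l and Trim28 (r = 0.93 over 16 lines, Spearman's rho 0.82, and r = 0.82 over the 14 lines without AN6 and GS4). Tet1 and Tet2 followed (r = 0.92, rho 0.88, and 0.85 over the 14 lines), then Tet2 and Trim28 (r = 0.91, rho 0.78, and 0.73 over the 14 lines). Zfp57 and Trim28, which act in one complex, had r = 0.79, and 0.65 over the 14 lines. Dnmt1 and Uhrf1 had r = 0.74, but -0.027 over the 14 lines. Dppa3 had r between -0.28 (with Dnmt3a) and 0.50 (with Zfp57) over the 16 lines. With Zfp57 its rho was 0.70, and over the 14 lines r was 0.71 and rho 0.79. Within the AN lines its r with Tet1 was 0.72, against -0.42 within the AI lines.

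**Figure D3:**
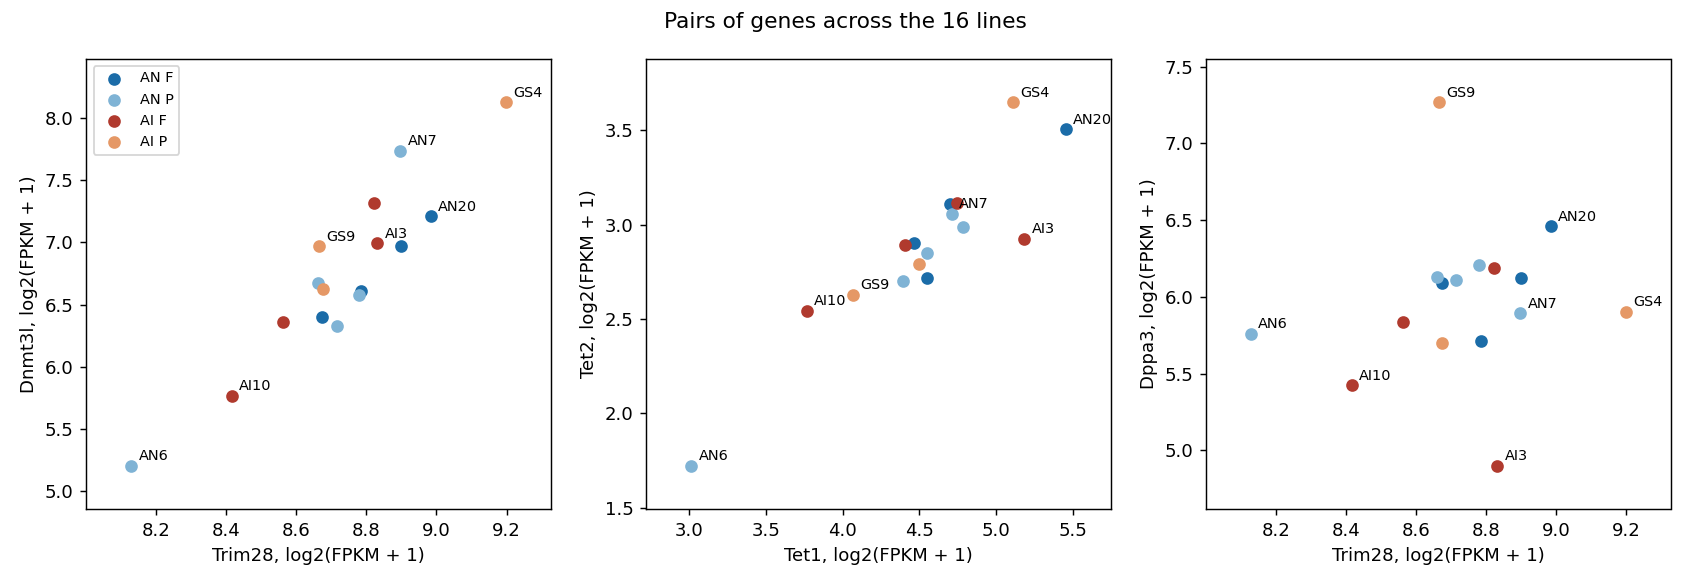
Pairs of genes across the 16 lines, each point 1 line coloured by group, both axes in log2(FPKM + 1). Dnmt3l rises with Trim28 and Tet2 with Tet1 from AN6 at the lower left to GS4 and AN20 at the upper right, whereas Dppa3 against Trim28 has GS9 and AI3 far off at the top and bottom.

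For 9 of the genes, the tested gene outside the 10 with the most similar pattern over the 16 lines is given by Pearson r. Dnmt3l was nearest to Dppa2 (r = 0.96), a pluripotency-associated gene that had 24.6 FPKM in AN6 and 129 in GS4. Tet2 was nearest to Msh6 (r = 0.98), a mismatch repair gene, and Tet1 to Cbfa2t2 (r = 0.97), a corepressor gene. Zfp57 was nearest to 9630033F20Rik (r = 0.98), Trim28 to Mthfd1 (r = 0.96), an enzyme of folate metabolism, and Dppa3 to Armc10 (r = 0.94). Dnmt1 was nearest to Elp3 (r = 0.93), Dnmt3b to Myb (r = 0.91) and Uhrf1 to Cnot1 (r = 0.93). Each is the highest of 13175 correlations, so a high value was certain to occur and r describes the pattern only.

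The first comparison asked whether the methylation genes differ between fully and partially reprogrammed ntESCs. None of the 10 differed between AN F and AN P beyond the spread between lines. Among the 10, 0 had an adjusted p under 0.05 by limma (0% of the 13185 tested genes did) and 0 had an unadjusted p under 0.05 (6.01% of tested genes did). In 0 of the 10 the ranges of F and P lines were apart, against 1.3% of tested genes. The adjusted p by limma ran from 0.636 to 0.997. By point estimate 9 genes were higher in AN F (10 after median-ratio scaling or rescaling without small RNA genes), with a median of 0.19 against -0.015 for all tested genes. Tet1 had the largest estimate (0.50, SE 0.36), followed by Tet2 (0.40, SE 0.28), Dnmt3l (0.30, SE 0.42) and Dnmt3b (0.22, SE 0.16). AN6 decided most of that shift. Without it, the estimates were 0.18 for Tet1, 0.16 for Tet2 and 0.099 for Dnmt3b. Without AN20, those of Tet1, Tet2 and Dnmt3l were 0.28, 0.25 and 0.16, and without AN7 that of Dnmt3l was 0.61. Without AN6, 7 of the 10 estimates were above 0, with a median of 0.042, and those of Dnmt1 and Dnmt3l turned to -0.047 and -0.029. The intervals left room for sizeable differences, from 0.637 to 2.36-fold for Dnmt3l and from 0.803 to 2.50-fold for Tet1.

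Between AI F and AI P, the same question in iPSCs, again none of the 10 differed beyond the spread between lines. 0 of the 10 had an adjusted p under 0.05 by limma (0% of tested genes), 0 had an unadjusted p under 0.05 (7.77% of tested genes) and 0 had ranges apart (4.88% of tested genes). With 4 lines against 3, the smallest two-sided exact permutation p is 0.057, so that test could not pass 0.05 here. By point estimate 8 genes were lower in AI F, with a median of -0.12 against -0.040 for all tested genes, but the split was 5 to 5 after quantile normalization and 3 lower to 7 higher after rescaling without small RNA genes, which also moved the median of all tested genes to 0.12. The largest estimates were those of Dppa3 (-0.70, SE 0.44), Zfp57 (-0.66, SE 0.34) and Dnmt3l (-0.63, SE 0.47). Zfp57 had the lowest exact permutation p in this comparison, 0.171 (two-sided, 35 splits), and an adjusted p of 0.521 by limma. Single lines decided much of this. Without GS4, 6 of the 10 estimates were above 0, the median was 0.034, and Zfp57 and Dnmt3l were at -0.30 and -0.19. Without AI10, Dnmt3l was at -0.35. The Dppa3 estimate turned on GS9, being -0.22 without that line and -0.90 without GS4. The interval for Zfp57 ran from 0.364 to 1.10-fold and that for Dppa3 from 0.300 to 1.26-fold.

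The F to P difference in AI was compared with that in AN as an interaction term over all 16 lines. 0 of the 10 genes passed an adjusted p of 0.05 by limma (0% of tested genes). Zfp57 alone had an unadjusted p under 0.05 (16.6% of tested genes did), with a difference of differences of -0.81 (SE 0.37, adjusted p 0.297 by limma). Without GS4 this estimate was -0.45 (unadjusted p 0.192 by limma), and without AN6 and GS4 it was -0.31. Its group means were 85.2 and 77.7 FPKM in AN F and AN P, and 62.0 and 104 in AI F and AI P. The estimate was below 0 for 9 of the 10 genes, with a median of -0.46 against -0.040 for all tested genes. After rescaling without small RNA genes it was below 0 for 7 of the 10, with a median of -0.27 against 0.12 for all tested genes. Without AN6 and GS4 the median was -0.027, against -0.031 for all tested genes, and 7 of the 10 were below 0.

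**Figure D4:**
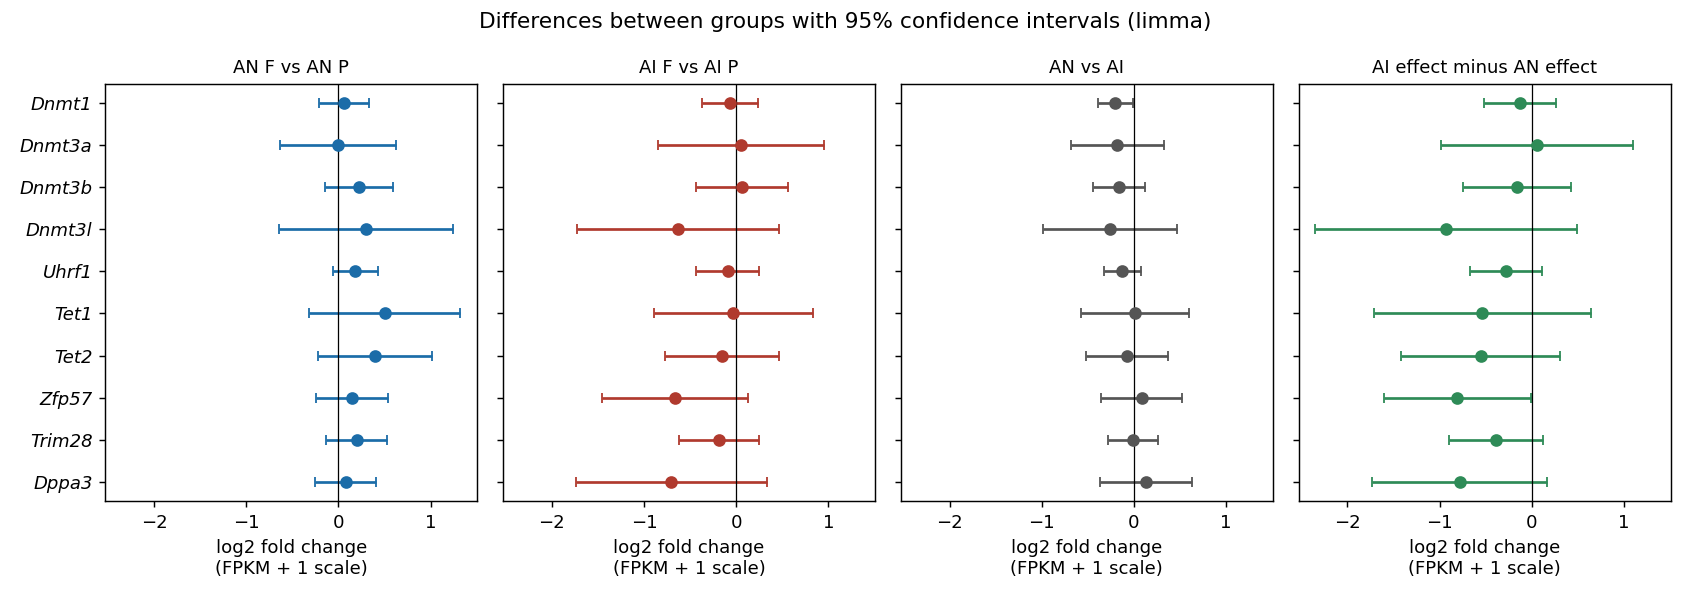
Difference between groups for each gene (log2 fold change on the FPKM + 1 scale, point estimate with 95% confidence interval by limma), for AN F against AN P, AI F against AI P, AN against AI, and the AI effect minus the AN effect. Of the 40 intervals, only those of Dnmt1 in AN against AI and of Zfp57 in the last panel lie on one side of 0, and neither passes adjustment over all tested genes.

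Nuclear transfer and factor-induced lines were compared with the class as a term. 0 of the 10 genes passed an adjusted p of 0.05 by limma (0% of tested genes), and 0 had ranges apart (0.0228% of tested genes). Dnmt1 was the only one of the 10 with an unadjusted p under 0.05 (3.31% of tested genes had one). It averaged 62.3 ± 7.27 FPKM in the AN lines (SD, n = 9) and 71.7 ± 7.86 in the AI lines (n = 7), a log2 difference of -0.20 (SE 0.091) with an adjusted p of 1.000 by limma. Its exact permutation p was 0.023 (two-sided), the only one under 0.05 among 30 such tests on the 10 genes. The ranges overlapped, with AN lines from 44.9 to 70.4 and AI lines from 62.2 to 81.7. The estimate stayed below 0 in the other fits, from -0.27 to -0.12. Its unadjusted p was no longer under 0.05 with quantile normalization, rescaling without small RNA genes, passage as a term, F lines only, P lines only, the earlier AI lines left out or AN6 and GS4 left out, nor without any one of 7 single lines. For the other 9 genes the estimates were between -0.26 (Dnmt3l, -0.013 without GS4) and 0.13 (Dppa3). The direction of the 10 genes was not steady. In the main fit 3 were higher in AN and 7 lower (median -0.10). Among F lines only, 7 were higher in AN. Among P lines only, 10 were lower in AN, and that comparison holds AN6 on one side and GS4 on the other. With both classes kept but AN6 and GS4 left out, 8 were higher in AN and 2 lower (median 0.13). With passage as a term, 6 were higher and 4 lower.

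Other genes of the same pathways gave few differences, and none of the genes in these lists passed an adjusted p of 0.05 by limma in any of the 4 comparisons. For these and the later lists, the share of all tested genes with an estimate above or below 0 was not computed. The median of all tested genes was -0.015 in AN F against AN P and -0.040 in AI F against AI P. None of these lists was refitted without AN6 or GS4. Of 10 partners of maintenance methylation, 1 had an unadjusted p under 0.05 in AN F against AN P (6.01% of all tested genes did). This was Cdca7, which acts with the remodeller HELLS, at 70.7 ± 6.27 FPKM in AN F (SD, n = 4) and 61.0 ± 5.34 in AN P (n = 5). In AI F against AI P, 0 of the 10 did and 9 estimates were below 0. Uhrf2, the paralog of Uhrf1, did not follow it, having its highest value (31.8) in AN6, where Uhrf1 was lowest.

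Of 9 genes that guide de novo methylation, 1 had an unadjusted p under 0.05 in the AN comparison (6.01% of all tested genes) and 0 did in the AI comparison (7.77%). Suv39h2, a histone H3 lysine 9 methyltransferase, had 11.2 ± 1.67 FPKM in AN F and 9.37 ± 0.427 in AN P. Of 12 tested demethylation genes, 1 was lower in AN F at an unadjusted p under 0.05, and 1 was higher and 2 were lower in AI F. Over all tested genes 2.99% were lower in AN F, and 3.47% were higher and 4.3% lower in AI F. Apex1, a base excision repair endonuclease, had 96.0 ± 14.1 FPKM in AN F and 117 ± 8.09 in AN P. Tet3, the third TET gene, was at a low level and went its own way. It had 2.43 ± 0.673 FPKM in AI F (SD, n = 4) and 1.32 ± 0.618 in AI P (n = 3), with 2.97, 1.46, 2.79 and 2.51 in AI3, AI7, AI10 and GS32 and 2.03, 0.962 and 0.957 in AI9, GS4 and GS9. Its log2 difference was 0.58 (SE 0.23, adjusted p 0.521 by limma), and the ranges overlapped through AI7 and AI9. GS4, the highest line for Tet2, was second lowest for Tet3. Idh2, a mitochondrial source of 2-oxoglutarate, the TET cosubstrate, had 38.5 ± 6.43 FPKM in AI F and 51.1 ± 8.63 in AI P.

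In the list of methyl-CpG readers and their family members, Mbd3 among them, all were above 0 in AI F (7 of 7 tested, median 0.16). Of these, 1 had an unadjusted p under 0.05 (7.77% of all tested genes did). This was Mbd1, at 7.51 ± 0.798 FPKM in AI F and 5.85 ± 0.681 in AI P. In AN F, 2 of the 7 were above 0, and Zbtb33 (Kaiso) had an unadjusted p under 0.05 (6.01% of all tested genes did), at 5.20 ± 1.06 FPKM against 4.13 ± 0.291 in AN P. Of the 11 genes of the KAP1 complex and its partners, 0 had an unadjusted p under 0.05 in either F to P comparison, with 11 above 0 in AN and 8 below 0 in AI. AN6, a P line, was the lowest line for 6 of the 11 (13.8% of all tested genes). Zfp445, a second zinc finger gene for imprint protection, was steady, at 15.1 to 22.4 FPKM over all lines, and was not low in AN6 (17.98). Of 10 genes that supply methyl groups, 0 had an unadjusted p under 0.05 in those comparisons, and AN F and AI F had 7 above 0 and 8 below 0.

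Lists of possible targets were read beside the 10 genes. Germline genes that are silenced by DNA methylation in somatic cells, such as Dazl, Tex19.1 and Sycp3, were tested for 15 of 20 members. In AN F against AN P 14 estimates were above 0 and 1 had an unadjusted p under 0.05 (6.01% of all tested genes), and in AI F against AI P 14 were below 0 and 0 did (7.77%). Their summed FPKM was 93.2 to 134 in AN F, 55.5 to 125 in AN P, 64.2 to 98.7 in AI F and 73.5 to 210.1 in AI P. AN6 had the lowest sum and was the lowest line for 11 of the 20 genes, and GS4 had the highest and was the highest line for 12 of the 20. Tex19.1 had 17.0 FPKM in AN6 and 90.0 in GS4. These are the lines that were also lowest and highest for most of the 10 genes. Of 32 tested imprinted genes, 7 were higher and 1 lower in AI F at an unadjusted p under 0.05, against 1 higher and 2 lower in AN F and 6 higher and 0 lower in AN against AI. The shares of all tested genes were 3.47% higher and 4.3% lower in AI F, 3.02% and 2.99% in AN F, and 2.02% and 1.3% in AN against AI. The list holds neighbouring genes of single imprinted domains, so its members are not separate cases. In the Dlk1-Dio3 domain, Meg3 (Gtl2), Rian, Mirg and Rtl1 each had AI F lines above all AI P lines. Meg3 had 69.8 to 119 FPKM in AI F and 27.7 to 53.3 in AI P. The study reported Rian, Gtl2 and Rtl1 as higher in AI F by quantitative PCR. The summed FPKM of the imprinted genes had its extremes in the same lines as that of the germline genes, in the opposite direction. The sum of the 38 in the table was lowest in GS4 (751 FPKM), the lowest line for 12 of the 38 and for 13.4% of all tested genes. It was highest in AN6 (1758.5 FPKM), the highest line for 9 of the 38 and for 13.0% of all tested genes. Abundant genes weigh most in these sums, such as H19 (327 FPKM in AN6, 65.7 in GS4) and Gnas (339 and 121). Not all genes ran that way. Grb10 (8.89 and 8.28 FPKM) and Mest (37.2 and 34.1) were low in both AN6 and GS4. The AI P side of the AI counts holds GS4, and the part of that line in them was not tested.

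Markers of cell state also had extreme values in these lines. Of 9 pluripotency markers in the table, AN6 was the lowest line for 5 and GS4 the highest for 5, with Zfp42 (Rex1) at 70.6 FPKM in AN6, 97.4 in AI10 and 445 in GS4. AI3 was the lowest line for 3 of the 9 (7.58% of all tested genes), with Zfp42 at 94.9 FPKM. The median deviation of the 10 genes in AI3 was 0.19. Of 6 primed epiblast markers, AN6 was the highest line for 4 (13.0% of all tested genes). The sum of the 6 was 346 FPKM in AN6 and 254 in AI10 against 56.98 to 174 in the other 14 lines. Most of the sum in AN6 and AI10 was the mesoderm gene T, which had 257 FPKM in AN6, 174 in AI10 and 5.85 in GS4. Without T the other 5 summed to 89.4 FPKM in AN6, 82.6 in AI3, 80.7 in AI10 and 79.9 in AN1. Otx2 was highest in GS4 (33.3, against 13.9 in AI10) and Pou3f1 in AI3 (48.1). Trophoblast markers summed to 44.7 FPKM in AN6 and 40.9 in AI10, against 5.25 (AI3) to 18.5 (AN15) in the other lines. Most of this was Krt7 (23.1) and Eomes (16.2) in AN6, and Eomes (24.5) and Cdx2 (10.5) in AI10. Elf5 was only at 0.079 FPKM in AN6 and 0.036 in AI10, and Gata3 at 0.63 and 1.44. Of the 12 fibroblast markers, all 12 were above 0 in AI F against AI P (1 at an unadjusted p under 0.05, against 7.77% of all tested genes) and 2 in AN F against AN P, none was at 0 in any line, and their sum was lowest in GS4 (480) and GS9. The 2-cell-like markers summed to at most 28.6 FPKM, in GS4, and Tcstv1 and Tcstv3 were listed at 0 in all lines. Extraembryonic endoderm markers summed to at most 14.8 FPKM and adipocyte progenitor markers at 17.7 to 37.1. The part of these markers, of passage number and of the earlier derivation of GS4, GS9 and GS32 in the values of the 10 genes was not tested beyond the fits given here.

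**Figure D5:**
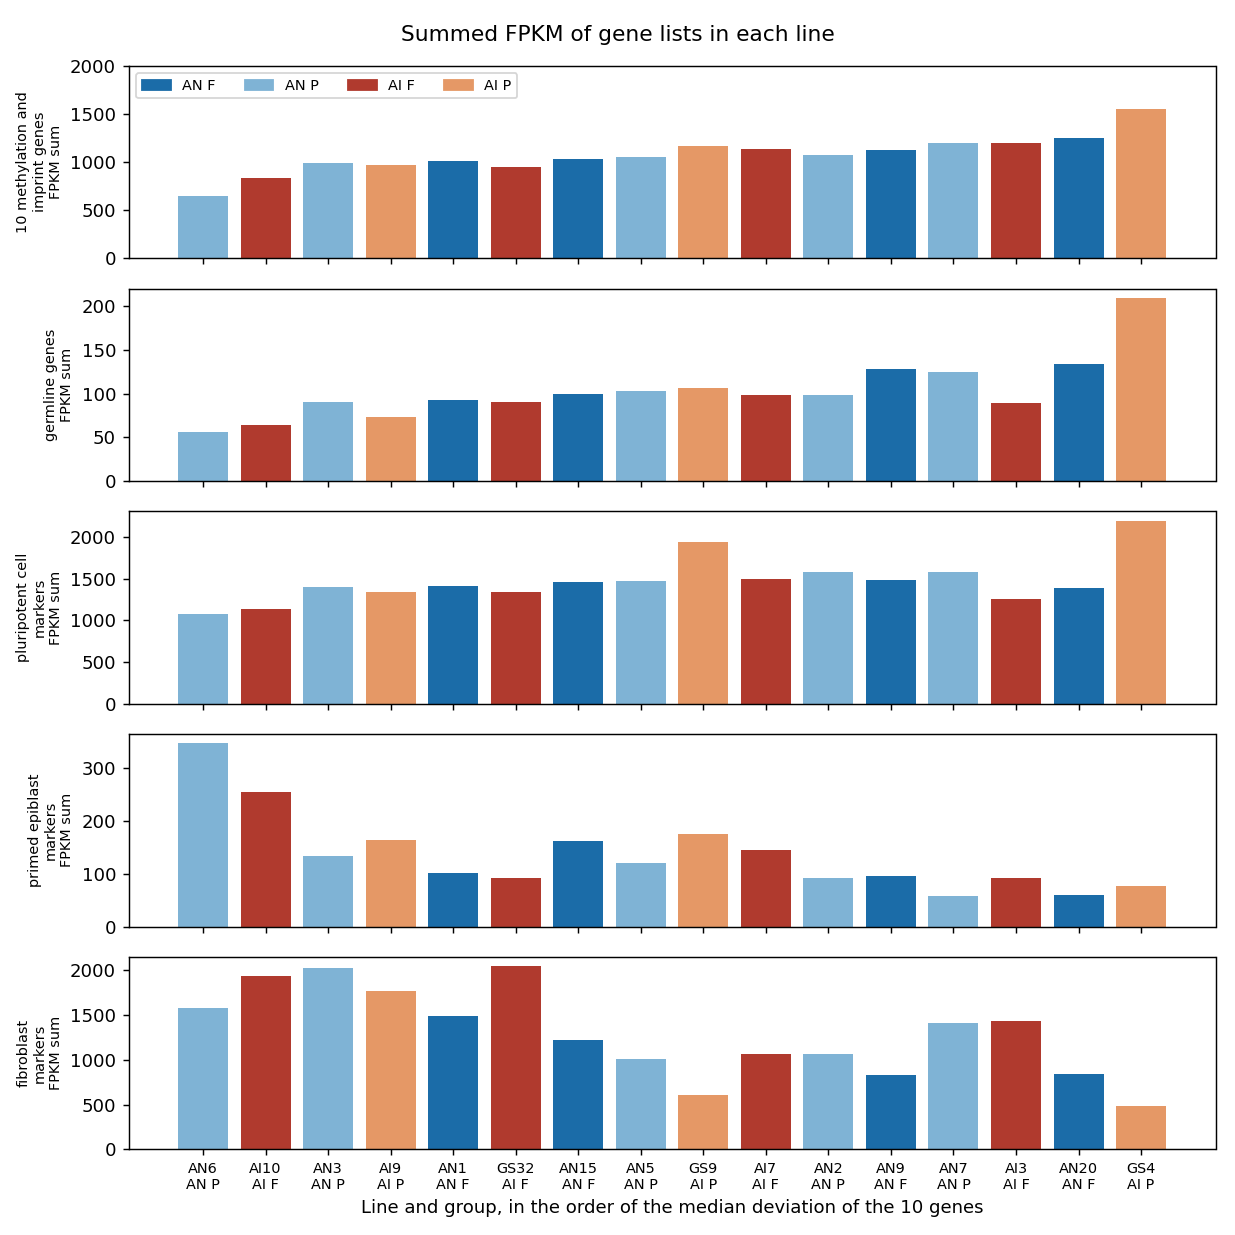
Summed FPKM of 5 gene lists in each line (bars from 0, coloured by group), with lines in the order of the median deviation of the 10 genes. The germline genes and pluripotency markers are lowest in AN6 (55.5 and 1076) and highest in GS4 (210.1 and 2202), and the summed primed epiblast markers are highest in AN6 and AI10, where T makes up most of the sum.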

How the data were processed

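RNA from 16 lines was sequenced as single-end reads, 1 library per line. The authors mapped the reads to mm9 with TopHat2 2.1.0 and made the deposited FPKM values with Cufflinks 2.2.1 (versions and the name HTSeq, with no role given, from the submitters' processing notes). FPKM scales by transcript length and library, so genes for small RNAs (563 genes, 13.0% to 22.7% of the FPKM sum of a line) move all other values. Read counts were not analysed here, so the depth behind a value is unknown and no counting interval is given.

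Values were used as log2(FPKM + 1), so fold changes of low genes are understated. The 13185 genes whose FPKM averaged 0.5 or more were tested with limma 3.58.1 in R 4.3.3 (mean-variance trend, Benjamini-Hochberg over all tested genes, threshold 0.05): AN F against AN P in 9 lines, AI F against AI P in 7 lines, AN against AI in 16 lines with the class as a term, and the difference of the F to P effects in 16 lines. Each of the 10 genes was also compared by exact permutation tests (Python 3.11.15), doubling the smaller tail for a two-sided p. The smallest p is 0.016 for AN, 0.057 for AI and 0.00017 for AN against AI. The code was tested on simulated data. The genes, the lists and the tests were chosen with earlier results of these data known. The named genes are the 10, Tet3, Uhrf2 and Zfp445, up to 2 genes per pathway list and comparison with the smallest unadjusted p where that was under 0.05, and the gene most like each of the 10, which for Dnmt3a is not reported here. Genes and markers of other lists named for single lines, and those of the Dlk1-Dio3 domain, were chosen after their values were seen. Upstream sequences are from RefSeq (GRCm38.p6) and positions of genes from the mm9 annotation, and the builds were not mixed. Alternatives covered pseudocount, filter, scaling, prior, passage, derivation and leaving out each line. Leaving out AN6 and GS4 together was added after seeing the data.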

Additional observations from a re-analysis of the deposited data

Results flagged for a closer look

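In 3 of the 30 sets of lines looked at (10 genes in the 3 groups with more than 3 lines), 1 line stood apart by Dixon's test at the 95% level, where chance gives about 1.5. Among the AI F lines, Dnmt3a was at 43.0 FPKM in AI3, with the other lines at 23.1 to 26.0. Dnmt3b was at 285 FPKM in AI3, with the other AI F lines at 161 to 171. Both de novo methyltransferase genes were therefore high in the same fully pluripotent iPSC line, which was also the lowest of all lines for Dppa3 (28.9 FPKM) and second highest for Tet1 (35.4). Without AI3 the estimates of AI F against AI P were -0.14 for Dnmt3a and -0.13 for Dnmt3b. Among the AN P lines, Uhrf1 was at 52.8 FPKM in AN6, with the other lines at 69.7 to 76.1.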

How the results depend on the processing

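Of the 950 repeated estimates for the 10 genes, 862 kept their direction and 88 changed it, and 0 passed an adjusted p of 0.05 by limma. Those that changed were mostly near 0, and for each the cause was not tested. The 862 include repeats that could not change direction. Changing the filter, the trend or the prior, or fitting all lines together, left the estimates themselves as they were. Leaving out AN6 and GS4 together also repeats the fit without AN6 in AN and without GS4 in AI. Rescaling without small RNA genes moved the genes at an unadjusted p under 0.05 from 458 higher and 567 lower to 746 and 178 in AI, from 398 and 394 to 504 and 288 in AN, from 266 and 171 to 370 and 138 in AN against AI, and from 1095 and 1099 to 1669 and 354 in the difference of effects, with medians of all genes of 0.12 in AI and 0.12 in the difference of effects.

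In AN F against AN P, estimates turned to -0.047 (Dnmt1) and -0.029 (Dnmt3l) without AN6 and GS4, and to 0.0091 and 0.0039 (Dnmt3a) with median-ratio scaling and with rescaling. Leaving out each line gave -0.047 to 0.11 (Dnmt1), -0.24 to 0.15 (Dnmt3a), -0.029 to 0.61 (Dnmt3l) and -0.044 to 0.21 (Dppa3), and 0 to 1 genes at an unadjusted p under 0.05 (1, Dnmt3b, without AN5).

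In AI F against AI P, quantile normalization gave 0.032 (Dnmt1), 0.011 (Uhrf1) and 0.021 (Trim28), and rescaling 0.13 (Dnmt1), 0.11 (Uhrf1), 0.16 (Tet1), 0.015 (Tet2) and 0.015 (Trim28). Without AN6 and GS4 the values were 0.010 (Dnmt1), 0.077 (Uhrf1), 0.24 (Tet1) and 0.16 (Tet2). Tet1 was 0.0023 with median-ratio scaling, 0.075 with passage and 0.050 with derivation as a term. The fit of all lines gave 1 gene at an unadjusted p under 0.05. Leaving out each line gave 0 to 1 (1, Zfp57, without AI9), and -0.17 to 0.010 (Dnmt1), -0.18 to 0.52 (Dnmt3a), -0.13 to 0.14 (Dnmt3b), -0.22 to 0.077 (Uhrf1), -0.28 to 0.24 (Tet1) and -0.35 to 0.16 (Tet2).

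In AN against AI, 0 of the 10 genes had an unadjusted p under 0.05 with quantile normalization, rescaling, passage as a term or P lines only, 2 (Zfp57 and Dppa3) did without the earlier AI lines, and leaving out each line gave 0 to 1. Dnmt1 was no longer among them without AN9, AN20, AN3, AI3, AI7, GS4 or GS9 in turn. Quantile normalization gave -0.0043 (Tet1) and 0.024 (Trim28), rescaling 0.012 (Trim28), and passage as a term 0.051 (Dnmt3a), 0.14 (Tet2) and 0.076 (Trim28). Without the earlier AI lines Dnmt3l was 0.031, Tet2 0.14 and Trim28 0.085. P lines only gave -0.27 (Tet1), -0.34 (Zfp57) and -0.27 (Dppa3), F lines only 0.19 (Dnmt3l), 0.0083 (Uhrf1), 0.19 (Tet2) and 0.18 (Trim28), and no class term -0.026 (Tet1). Without AN6 and GS4 the values were 0.094 (Dnmt3a), 0.13 (Dnmt3l), 0.0032 (Uhrf1), 0.19 (Tet2) and 0.14 (Trim28). Leaving out each line gave -0.28 to 0.0093 (Dnmt3a), -0.13 to 0.17 (Tet1), -0.17 to 0.092 (Tet2), -0.022 to 0.29 (Zfp57), -0.063 to 0.089 (Trim28) and -0.0073 to 0.39 (Dppa3).

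In the difference of effects, 0 of the 10 had an unadjusted p under 0.05 with no filter, quantile normalization, median-ratio scaling, rescaling or passage as a term, and leaving out each line gave 0 to 2 (2, Zfp57 and Dppa3, without AI7 or AI9). Dnmt1 was 0.063 and Dnmt3b 0.031 with rescaling, and Dnmt1 was 0.057 and Tet1 0.059 without AN6 and GS4. Leaving out each line gave -0.17 to 0.52 for Dnmt3a. Without AI9, 651 of all tested genes passed an adjusted p of 0.05 there by limma, and 0 of the 10 did. By absolute size of the difference, 1 of the 30 exact permutation tests was under 0.05, as before. Class, passage and derivation overlap in AI, where GS4 (passage 17) and GS32 (passage 13) are both earlier lines, so they cannot be told apart in full.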
